A study of Homo sapiens with 4 samples.

Results

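The centromere of chromosome 1 and the sequence on both sides of it held 1553 of the 21300 ChIP-seq peaks of the series. Members were all peaks on chromosome 1 whose summit, the base of highest ChIP coverage, lay from 121000000 to 126000000 (hg38), a stretch of 5 Mb. The peak list of cells given TGF-β1 (transforming growth factor β1) contributed 1022 members and the list of control cells 531. These were 6.39% of the 15993 TGF-β1 peaks and 10.01% of the 5307 control peaks. Members were taken by position alone, with earlier results of these data known.

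Centromeres are the sites where the kinetochore forms and the spindle attaches in cell division. Human centromeres are built of alpha satellite, a short DNA monomer repeated in tandem, and groups of monomers are themselves copied many times as higher-order repeats. Sequencing reads from such arrays can be placed at several copies, and in hg38 the arrays are modelled sequence, so a peak here marks a place in the model and may gather reads from other copies. The stretch also takes in the pericentromeric duplicated genes on the short arm, among them SRGAP2C, a human-specific copy of a gene that shapes neuronal migration.

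The TGF-β1 libraries came from cells treated with TGF-β1 at 20 ng/mL for 2 h, and the control libraries from cells labelled control. The cells of both groups are labelled HSC, stem cells and progenitors, cultured with fetal bovine and human serum, and chromatin was prepared with a Diagenode kit. The treatment text, which is the same for the controls, also names GDF11 at 100 ng/mL as another treatment, and neither its use on these cells nor the antibody is given in the sources used here. Peak lists hold no measurement that could check the labelled cell type.

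Each group held 1 ChIP library and 1 input library, input being sheared chromatin without immunoprecipitation. No test between the groups was therefore possible, all differences below are between single libraries, and the 95% intervals printed express only the error of counting. Without duplicates, 45984282 ChIP tags were left for TGF-β1 and 36280696 for the control, a ratio of 1.27. Tags were 43 bp long in the TGF-β1 library and 60 bp in the control library. Group, depth and tag length changed together and cannot be told apart.

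Most members of both lists lay in 1 long block, and a smaller block further on held control peaks only. In bins of 100 kb, 37 of the 50 bins held a TGF-β1 summit, 28 a control summit and 27 both. TGF-β1 summits alone were found in 10 bins, control summits alone in 1, and 12 bins were empty. Neighbouring bins with at least 10 summits of both lists together formed 3 runs, a limit chosen after the counts were seen. The long run, from 122.5 to 124.8 Mb, held 967 TGF-β1 members and 505 control members, or 94.6% and 95.1% of each list's members. The near run, on the short-arm side from 121.7 to 121.8 Mb, held 18 TGF-β1 and 10 control members. The far run, from 125.1 to 125.2 Mb, held 0 TGF-β1 and 13 control members. From 125.2 Mb to the end of the stretch neither list had a summit. No genome sequence was used, so whether reads can be placed in that part was not examined.

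**Figure D1:**
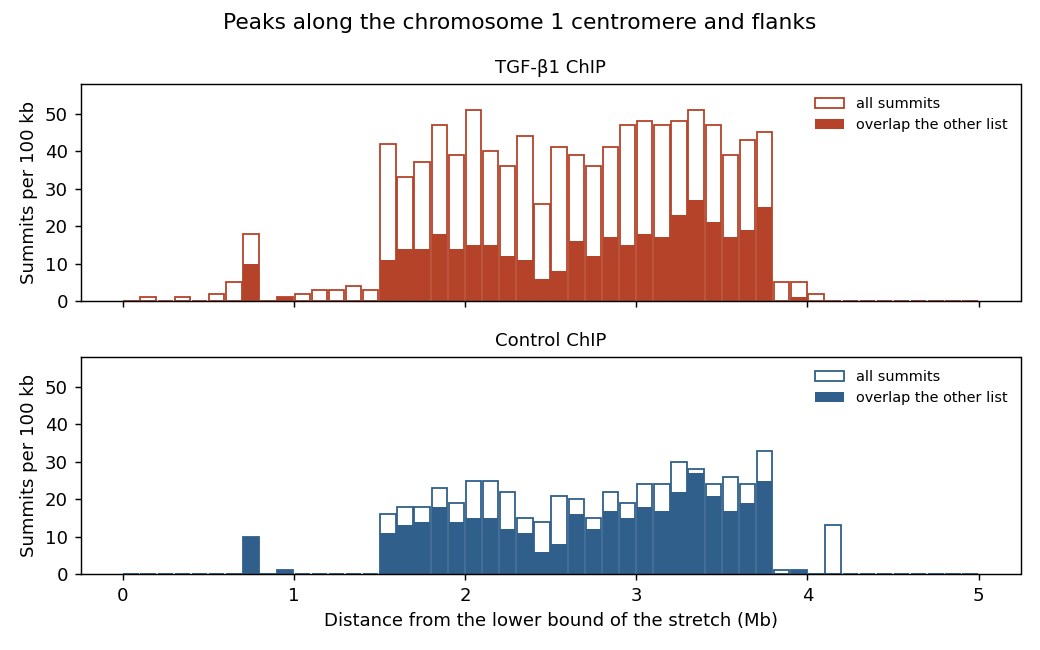
Number of summits in each 100 kb bin (y axis) against the distance from the lower bound of the stretch (x axis, Mb), TGF-β1 ChIP above and control ChIP below, with filled bars for peaks that overlap a peak of the other list. Both lists fill the same 23 bins of the long run, with 26 to 51 TGF-β1 summits and 14 to 33 control summits per bin, and the block of 13 control peaks near 4.1 Mb has no TGF-β1 counterpart.

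The long run started and ended at close to the same place in both lists. Its summits reached from 122503593 to 124783446 for TGF-β1 and from 122504776 to 124784129 for the control. Before the first of these control summits lay the longest gap of that list, 536 kb back to the summit at 121968584, and past the run came its next longest, 239 kb from 124927647 to the far run. Each of the 23 bins of the run held more TGF-β1 than control summits, with ratios from 1.36 to 2.93. The median bin held 42 TGF-β1 and 22 control summits. The counts of both lists moved together from bin to bin, with a Pearson r of 0.61 and a Spearman rho of 0.61 over 23 bins, which share the reference model and the libraries.

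Over the stretch there were 1.92 TGF-β1 peaks for each control peak (1.73 to 2.14). Outside the stretch the ratio was 3.13 (3.03 to 3.24), on the rest of chromosome 1 it was 2.49 (2.19 to 2.83), and in other dense bins, 1 Mb windows in which both lists together had 20 peaks or more, it was 2.34 (2.203 to 2.49). The ratio in the stretch depended on how the lists were limited. With a −log10 q of at least 5, which 31.1% of all TGF-β1 and 46.9% of all control peaks reached, 878 TGF-β1 and 480 control members were left, a ratio of 1.83. With a −log10 q of at least 10, reached by 8.76% of the TGF-β1 and 26.2% of the control list, 587 TGF-β1 and 362 control members were left, a ratio of 1.62. The TGF-β1 list alone was also shortened to the length of the control list by fold enrichment. This left 62 TGF-β1 members against 531 control members, a ratio of 0.117. The control list was left whole, and the median fold of TGF-β1 members, 2.62, lay below the 3.46 of their whole list. This limit therefore removed most TGF-β1 members and cannot tell which list had more peaks here.

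Before the near run, the short-arm flank held peaks of the TGF-β1 list alone. Unshared TGF-β1 peaks were also the rule on the rest of chromosome 1, where 0.699% (6 of 858) overlapped a control peak. In this part of the flank the TGF-β1 list had 9 members and the control list 0, where a count of 0 (limit 3 counts) allows up to 0.565% of the control members. These 9 had pileups, the number of ChIP tags over the summit, of 13 to 23, fold enrichments of 3.73 to 4.52 and a local background of 2.32 to 4.91 tags. The first lay in FAM72B, a protein-coding gene with several near-identical copies on chromosome 1 (121167646 to 121184340), from 121170071 to 121170206, with a pileup of 13 and a fold of 3.73. The next lay in SRGAP2C (121184975 to 121392874), from 121351439 to 121351576, with a pileup of 19 and a fold of 4.06. Both genes have close paralogues, so the gene these reads came from is uncertain. The third, from 121584608 to 121584743 with a pileup of 13 and a fold of 4.22, lay 12.8 kb past the pseudogene EMBP1, the last annotated gene before the long gene-free interval. The other 6 lay between 121595650 and 121695809, 23.9 to 124 kb past EMBP1.

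Of 20 RefSeq genes in the stretch, 4 of them protein-coding, FAM72B and SRGAP2C were thus the 2 that held a TGF-β1 summit, and none held a control summit. Past the end of EMBP1 at 121571888 no gene is annotated for 21.7 Mb, until LOC101929814 at 143299518. How much of that span is assembled sequence was not examined. In that gene-free interval lay 1020 of the 1022 TGF-β1 members and all 531 control members. No member touched any of the 8 promoter windows that the RefSeq sequence table gives in the stretch.

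The near run was the block in which every control peak had a TGF-β1 counterpart. Of its 18 TGF-β1 members 10 overlapped a control peak, and all 10 of its control members overlapped a TGF-β1 peak. Median pileup there was 104 for TGF-β1 and 129.5 for the control, over median local backgrounds of 43.7 and 58.6 tags. The first control member of the stretch stood here, from 121743338 to 121743717, with a pileup of 131 and a fold of 2.15. Between the near and the long run a single place was shared. The TGF-β1 peak from 121968498 to 121968708 had a pileup of 75 and a fold of 2.15, and the control peak from 121968479 to 121968683 a pileup of 58 and a fold of 2.41, with summits 4 bp apart. The other 15 of the 16 TGF-β1 members in that interval had no control peak, near the share of the whole list, in which 4.81% of TGF-β1 peaks overlapped one.

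The far run was made up of control peaks, 9 of them among the 10 control members of highest pileup. Its 13 members lay within 18.1 kb, from 125166253 to 125184564, with pileups of 187 to 296 and folds of 1.53 to 2.01. Among them were the longest control peaks of the stretch, of 1896 bp (125181308 to 125183203), 1319 bp (125179543 to 125180861) and 652 bp (125178795 to 125179446). These 3 and the peak from 125183429 to 125183927 all had a pileup of 296, a fold of 1.83 and the same −log10 q, 16.2. The last TGF-β1 member, from 125062304 to 125062440 with a pileup of 19 and a fold of 4.29, was 104 kb short of the first peak of the run. By the same limit of 3 counts, 0 here allows up to 0.294% of the TGF-β1 members. Past the stretch, the next TGF-β1 peak, from 143807195 to 143807334, had a pileup of 13 and a fold of 4.22, and the next control peak, from 143184627 to 143185406, again a pileup of 296 and a fold of 1.83. The peaks last before the stretch were small in both lists, at 14 tags for TGF-β1 (120316341 to 120316490) and 20 for the control (120203912 to 120204084).

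The pileup of 296 is the highest that the control list could hold. The caller kept 1 tag per position and extended it to a fragment of 136 bp for TGF-β1 and 148 bp for the control, so that with both strands at most 272 and 296 tags can cover a base. The input is bound in the same way after scaling, to 267 tags for TGF-β1 and 161 for the control, whose larger input was multiplied by 0.545. With ChIP and input both at these limits the fold would be 1.02 for TGF-β1 and 1.83 for the control. The 4 control members with a pileup of 296 had a local background of 161 and a fold of 1.83, so both their libraries were at the limit. Over the whole lists 0 TGF-β1 and 52 control peaks were at the pileup limit, 31 of those control peaks with the background also at its limit. The lowest fold of any TGF-β1 peak in the whole list was 1.31. Whether these limits bear on the lack of TGF-β1 peaks in the far run was not tested. Whether the TGF-β1 library had tags in the far run cannot be read from a peak list.

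Nearly all members lay where the input was high. A local background over 5 times the genome-wide value was found at 987 TGF-β1 members (96.6%, 95.3% to 97.5%) and 529 control members (99.6%, 98.6% to 99.9%), against 17.4% of all TGF-β1 peaks and 40.6% of all control peaks. In dense bins elsewhere the shares were 45.2% (43.6% to 46.9%) for TGF-β1 and 90.8% (89.3% to 92.2%) for the control. The median local background was 33.4 tags at TGF-β1 members and 49.6 at control members, with quartiles of 22.6 to 49.1 and 36.0 to 62.7. The genome-wide values were 2.32 and 1.99. Of the 35 TGF-β1 members over low background, 9 lay before the near run, 14 between the near and the long run, 9 past the long run, 2 in the near run and 1 in the long run. The 2 control members over low background lay past the long run.

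Pileup was high and fold enrichment modest. Median pileup was 90.5 in TGF-β1 members (quartiles 66.0 to 123) and 119 in control members (92.5 to 152), and median fold 2.62 (2.24 to 3.10) and 2.46 (2.17 to 2.76). Per 10000000 ChIP tags the median pileups were 19.7 and 32.8, not adjusted for the fragment lengths of 136 bp and 148 bp. A pileup of at least 50% of the limit was reached by 183 TGF-β1 members (17.9%, 15.7% to 20.4%) and 148 control members (27.9%, 24.2% to 31.8%), against 1.89% of all TGF-β1 and 23.0% of all control peaks. In dense bins elsewhere it was 2.93% (2.42% to 3.55%) for TGF-β1, below the share in the stretch, and 63.0% (60.5% to 65.4%) for the control, above it. Median pileup in those bins was 35 for TGF-β1 and 193 for the control. Those 183 were 60.6% of the 302 such peaks of the TGF-β1 list, whereas the 148 were 12.1% of the 1219 of the control list.

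**Figure D2:**
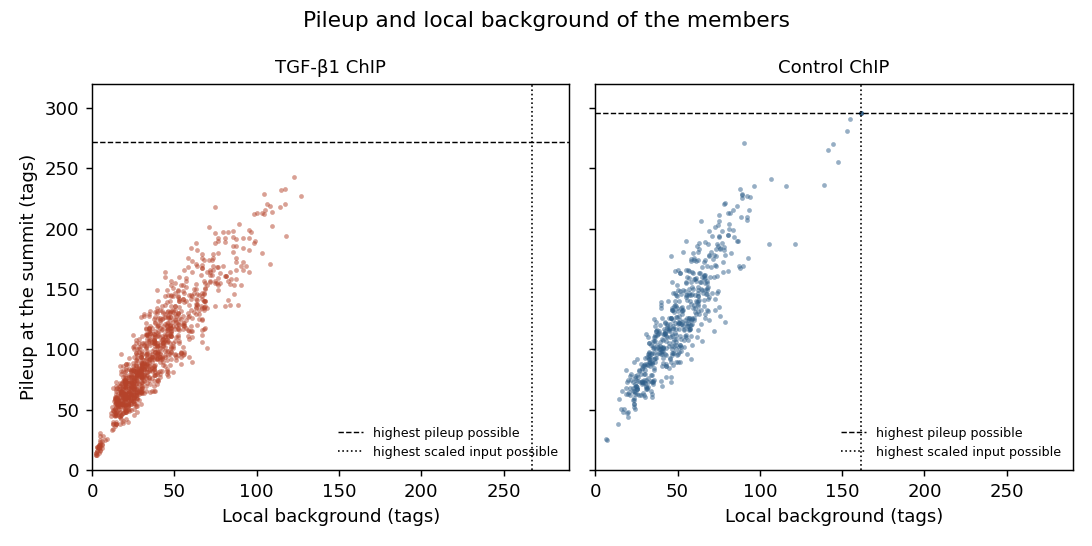
Pileup at the summit (y axis, tags) against local background (x axis, tags) for 1022 TGF-β1 members (left) and 531 control members (right); each point is a peak, and the lines mark the highest values that 1 tag per position allows. The TGF-β1 points end at a pileup of 243, short of the limit of 272, and the control points reach the crossing of both lines, at 296 and 161 tags.

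The 10 TGF-β1 members of highest pileup all overlapped a control peak, and 9 of them had folds of 1.78 to 2.19. The highest ran from 124745575 to 124745722 with a pileup of 243 and a fold of 1.97. The one with the largest fold among these 10, from 122981186 to 122981346, had a fold of 2.89 at a pileup of 218 (−log10 q 33.9). Of the 10 control members of highest pileup, 9 belonged to the far run and none overlapped a TGF-β1 peak. Lack of overlap was usual for control peaks, of which 14.4% overlapped a TGF-β1 peak in the whole list and 19.4% in dense bins elsewhere. The one outside it, from 123195630 to 123195835, had a fold of 2.97 at a pileup of 271. Its −log10 q of 44.9 was the highest of all members in both lists, and the nearest TGF-β1 summit was 1858 bp away.

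Ranked by fold, the leading TGF-β1 members were mostly unshared, like most members of that list, and lay at low or middle pileup. Of the 10 of highest fold, 1 overlapped a control peak, against 36.9% of all TGF-β1 members and 4.81% of the whole TGF-β1 list. The first ran from 122474483 to 122474641, just before the long run, with a fold of 5.41 at a pileup of 31 and a background of 4.91 tags. The next, inside the run from 123970737 to 123970893, had a fold of 5.19 at a pileup of 96, a −log10 q of 31.6 and the nearest control summit 1118 bp away. The peaks from 121786410 to 121786548 and from 122042189 to 122042403 each had a pileup of 19 and a fold of 5.07, and the peak from 123895009 to 123895145 a pileup of 68 and a fold of 5.03. In the control list 5 of the 10 members of highest fold overlapped a TGF-β1 peak, against 70.6% of all control members and 14.4% of the whole control list. Its first, from 123766077 to 123766265, was unshared, with a fold of 4.30 at a pileup of 83, and a TGF-β1 summit lay 634 bp away. The unshared control peaks that followed began at 124556374, 124140830, 124855616 and 123427788, with folds of 3.86, 3.82, 3.58 and 3.57 in that order. The highest shared one, from 122933750 to 122933977, had a fold of 3.80 at a pileup of 177 (−log10 q 41.6).

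Peaks were short in both lists. Median length was 155 bp in TGF-β1 members (quartiles 142 to 191) and 166 bp in control members (154 to 202), where the caller's shortest peak is the fragment length of 136 bp and 148 bp. The median excess over that minimum was 19 bp for TGF-β1 and 18 bp for the control. Exactly the minimum length was found for 75 TGF-β1 members (7.34%) and 29 control members (5.46%), against 12.7% and 11.2% of the whole lists. The longest TGF-β1 peaks were 429 bp (124570208 to 124570636), 393 bp (124498183 to 124498575) and 390 bp (124591870 to 124592259), all in the long run. The long control peaks were those of the far run, and elsewhere in the stretch no control peak exceeded 442 bp. TGF-β1 members covered 178 kb and control members 103 kb, and 62.7 kb were common to both.

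Most control peaks of the stretch had a TGF-β1 peak on top of them. Of the 1022 TGF-β1 members, 377 overlapped a control peak by at least 1 bp, or 36.9% (34.0% to 39.9%), against 4.81% of all TGF-β1 peaks. Of the 531 control members, 375 (70.6%, 66.6% to 74.3%) met a TGF-β1 peak, compared with 14.4% of all control peaks. The stretch held 49.0% of the overlapping peaks of each list, 377 of 770 TGF-β1 and 375 of 765 control peaks. On the rest of chromosome 1 the shares were 0.699% (6 of 858) of TGF-β1 and 1.74% (6 of 345) of control peaks. In dense bins elsewhere they were 8.37% (7.49% to 9.34%) and 19.4% (17.5% to 21.5%). With the TGF-β1 list shortened to the control length by fold, 6 pairs were left in the stretch, 9.68% of the TGF-β1 and 1.13% of the control members.

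Within the long run the share of overlapping peaks varied from bin to bin. In the TGF-β1 list it ran from 19.5% (8 of 41) in the bin from 123.5 Mb to 55.6% (25 of 45) in the bin from 124.7 Mb. In the control list it was lowest in the same bin from 123.5 Mb, at 38.1% (8 of 21), and 42.9% (6 of 14) in the bin before it, and highest in the bin from 124.3 Mb, at 96.4% (27 of 28).

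TGF-β1 members were shared more often the higher their pileup was. Members were split by pileup into 4 groups of equal size. In the lowest group (13 to 66 tags) 15 of 255 overlapped a control peak, or 5.88% (3.60% to 9.48%). The next groups gave 19.9% (15.5% to 25.2%) and 43.5% (37.6% to 49.7%), and the highest group (123 to 243 tags) 78.1% (72.7% to 82.8%). The control list showed no such order, with 64.4%, 76.7%, 78.9% and 62.4% from the lowest to the highest group, the last of which includes the far run. Shared TGF-β1 members had a median pileup of 126 over a background of 52.1 tags, and unshared ones 75 over 26.5. In the control list the medians were 119 over 50.2 in shared and 118 over 47.4 in unshared members.

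**Figure D3:**
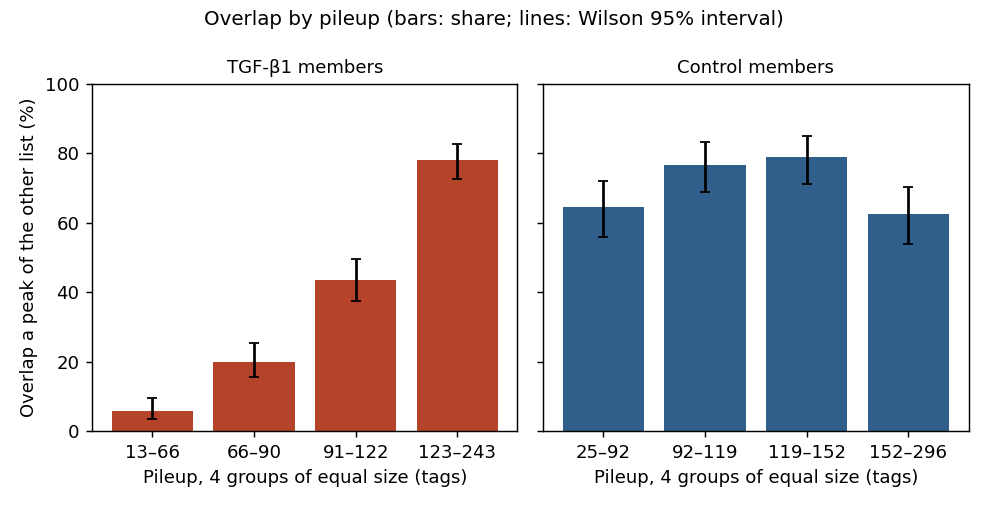
Share of members that overlap a peak of the other list (y axis, %) in 4 groups of equal size by pileup (x axis, tags), TGF-β1 members on the left and control members on the right, with Wilson 95% intervals. The TGF-β1 share climbs over the groups to 78.1%, and the control shares lie between 62.4% and 78.9%.

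Where both lists had a peak, the summits nearly coincided and the pileups were close. The 377 overlapping pairs (2 control peaks each met 2 TGF-β1 peaks) had summits a median of 9 bp apart, and in 345 pairs the distance was at most 50 bp. The pileup of the TGF-β1 peak divided by that of the control peak had a median of 1.04 (quartiles 0.990 to 1.11, range 0.685 to 1.36). It was above 1 in 255 pairs, below 1 in 108 and equal in 14. The ratio of the library depths, 1.27, was higher than the pileup ratio in 368 of the 377 pairs, and per tag the median ratio was 0.824. Pileup also rises with the fragment length, 136 bp for TGF-β1 and 148 bp for the control, which the depth ratio and the per-tag ratio leave out. The genome-wide backgrounds, which reflect both depth and fragment length, were 2.32 tags for TGF-β1 and 1.99 for the control. Across the pairs the pileups of both lists had a Pearson r of 0.97 and a Spearman rho of 0.96, and the folds an r of 0.57 and a rho of 0.59. The pairs share the reference model, and both peaks of a pair had to be called. The 393 overlapping pairs outside the stretch were much alike, with a median pileup ratio of 1.05 and a per-tag median of 0.825. The depth ratio was higher than the pileup ratio in 383 of them. Their pileups had a Pearson r of 0.99 and a Spearman rho of 0.98, and their folds an r of 0.72 and a rho of 0.80.

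**Figure D4:**
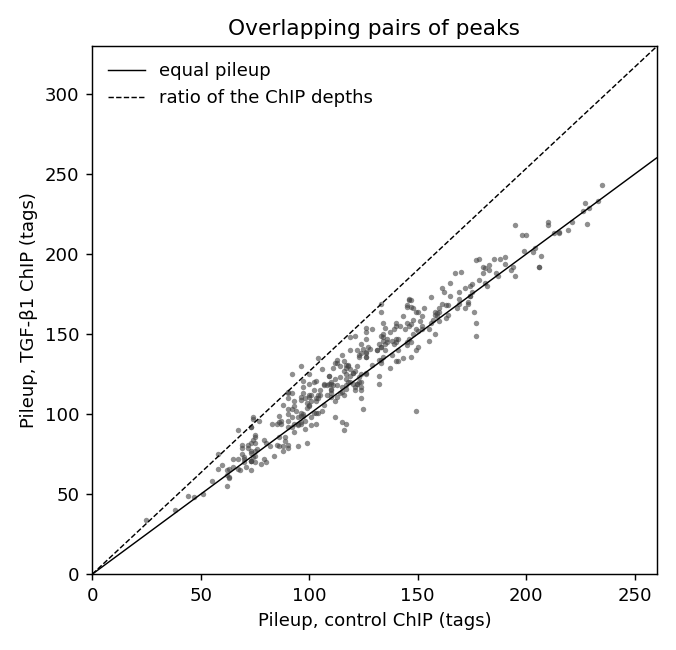
Pileup of the TGF-β1 peak (y axis, tags) against that of the control peak (x axis, tags) in 377 overlapping pairs of the stretch; the solid line marks equal pileups and the dashed line the ratio of the ChIP depths, 1.27. The points follow the solid line, and 368 of them lie below the dashed one, which leaves out the fragment lengths of 136 bp (TGF-β1) and 148 bp (control).

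The 5 pairs of highest summed pileup were alike in pileup but not in fold. At 124745575 to 124745722 the TGF-β1 pileup was 243 with a fold of 1.97, and the control pileup 235 with a fold of 2.42. At 123751174 to 123751330 both pileups were 233, with folds of 1.98 in the TGF-β1 and 2.64 in the control list. At 124768738 to 124768887 the pileups were 232 and 227 and the folds 2.01 and 2.45, TGF-β1 and control. At 124437308 to 124437483 both pileups were 229, with folds of 2.19 (TGF-β1) and 2.54 (control). At 124420892 to 124421159 the pileups were 227 (TGF-β1) and 226 (control) and the folds 1.78 and 2.39. The local background in these pairs was 104 to 127 tags for TGF-β1 and 87.8 to 96.5 for the control.

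Summits of the TGF-β1 list stood closer together, in a stretch where that list had 1022 members against 531. More summits in the same span tend to lie closer by construction, so the spacing largely restates the counts. The median distance between neighbouring summits was 1920 bp for TGF-β1 (quartiles 1005 to 3310) and 3074.5 bp for the control (1468 to 5873). In dense bins elsewhere the order was the other way, at 5661 bp in the TGF-β1 and 1456 bp in the control list. With the TGF-β1 list alone shortened to the control length by fold, its median spacing in the stretch was 33256 bp. The longest gap between TGF-β1 members was 233 kb, from the SRGAP2C peak to the one past EMBP1. Next came 182 kb from 121786461 to 121968580, where the control list also had a gap, of 193 kb. Unshared TGF-β1 members had a median distance to the nearest control summit of 2093 bp, and unshared control members one of 1158.5 bp to the nearest TGF-β1 summit. Whether these distances differ from what the density of summits alone would give was not tested.

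The distances between summits were periodic, with a step of about 1 kb in both lists. Over all distances of up to 10 kb between 2 summits of the long run, the period that fitted best was 1014 bp for TGF-β1 (3960 distances) and 1010 bp for the control (1119 distances), and 1012 bp for distances from a TGF-β1 to a control summit (4072 distances). The strength of the fit, the mean cosine, was 0.109, 0.192 and 0.153, where 1 would mean that all distances are exact multiples and 0 that there is no preference. The period was 1010 bp (TGF-β1) and 1001 bp (control) with distances of up to 5 kb, and 1021 bp for TGF-β1, and 1020 bp between the lists, with distances of up to 30 kb. Around the first 5 multiples of the period lay 1241 TGF-β1 and 386 control distances, and in windows of the same width between the multiples 854 and 198. At the first multiple the counts were 253 against 149 for TGF-β1 and 81 against 36 for the control. The same periods, fixed from the long run, gave a mean cosine of −0.0208 (TGF-β1) and −0.0224 (control) in dense bins elsewhere. Scanned for a period of their own, those bins gave at best 0.0357 at 248 bp (TGF-β1) and 0.0286 at 475 bp (control). Distances of those bins were pooled over all chromosomes, so a step in only some of them could be averaged out. These values therefore cannot show whether another single array has a step. The rest of chromosome 1 gave at best 0.338 at 414 bp for TGF-β1, from only 51 distances. For the control it gave 0.0685 at 241 bp, from 737 distances. The step was looked for after the distances had been seen, distances that share a summit are not independent, and the sequence of the repeats was not analysed here.

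**Figure D5:**
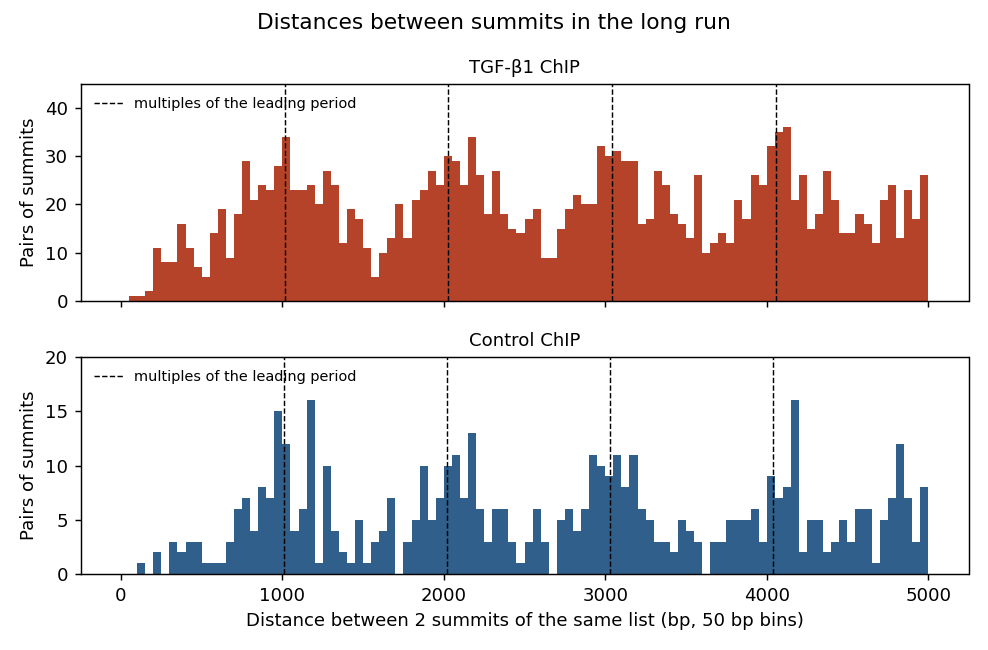
Number of pairs of summits (y axis) by the distance between them (x axis, bp, in bins of 50 bp, up to 5 kb) within the long run, TGF-β1 ChIP above and control ChIP below; dashed lines mark multiples of 1014 bp and 1010 bp. In both lists the counts crest near each multiple and drop between them.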

How the data were processed

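Peaks of 2 ChIP libraries, TGF-β1 and control, were analysed, each called by the authors against its own input. The submitters' processing notes name Bowtie2 as aligner and hg38 as build. Peaks were called with MACS2, version 2.2.7.1 per the file headers and 2.1.0 per the processing notes, at a q-value limit of 0.05, an effective genome size of 2700000000 bp and 1 tag per position. Filters on mapping quality or problem regions are not stated in the sources used. As signal, the authors deposited the pileup, which is how many extended ChIP tags cover the summit. The deposited fold, a ratio, divides this pileup by the local background, with 1 added to each. Their p-value and q-value, deposited on a −log10 scale, come from the caller's test of pileup against background, per the file headers. All are the authors' values for each peak.

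Local background was computed from pileup and fold. The lowest value in each list equalled the genome-wide background computed from the headers. Overlap was counted from 1 bp. Shares have Wilson and ratios exact binomial 95% intervals, and a count of 0 is given the limit of 3 counts. The period was scanned from 200 to 2000 bp. Overlap and period code was tested on simulated data. Genes came from RefSeq (GRCh38.p14). Python 3.11.15, pandas 2.3.3 and scipy 1.17.1 were used. Peaks are named in the text by rank of pileup, fold and length, by place at the ends, gaps and runs, or as the pairs of highest summed pileup. Members and lists were chosen with earlier results of these data known. No genome sequence was used, so no sequence is shown.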

Additional observations from a re-analysis of the deposited data

How the results depend on the processing

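At a −log10 q limit of 5, the control share of overlap was 66.25%, the median spacing of TGF-β1 summits 2072 bp, the median pileup of TGF-β1 members 96 and the median folds 2.70 (TGF-β1) and 2.51 (control). At a limit of 10, chosen after seeing the data, 587 TGF-β1 members were left, the ratio of the counts was 1.62 and the control share of overlap 56.4%. With the TGF-β1 list shortened to the control length by fold, 62 TGF-β1 members were left, the ratio of the counts was 0.117, the overlap 9.68% of TGF-β1 and 1.13% of control members, and the TGF-β1 spacing 33256 bp. The median fold of TGF-β1 members, 2.62, lay below that of the whole TGF-β1 list, 3.46, so a limit by fold removed most of them. Per 10000000 ChIP tags, the ratio of TGF-β1 to control was 0.600 for median pileup, 0.531 for median local background and 0.824 for the pileup of overlapping pairs. These 3 ratios were not adjusted for the fragment lengths of 136 bp (TGF-β1) and 148 bp (control). An overlap limit of 50% of the shorter peak kept both overlap shares within their intervals, bins of 50 kb the shares of bins with peaks, and summits within 50 bp the pileup ratio of pairs. The stretch narrowed by 500 kb at both ends left 1020 TGF-β1 and 531 control members, and members over high local background only 987 and 529, but the peaks in FAM72B and SRGAP2C are outside the narrowed stretch and none of the 9 TGF-β1 peaks before the near run lay over high background. Depth limits the short-arm flank, where the 9 TGF-β1 peaks before the near run rested on 13 to 23 tags. No paired analysis was possible because each group held 1 library, and no library could be left out for the same reason.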
